A study of Mus musculus with 12 samples.

Results

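The blood-testis barrier junction genes examined here are 9 genes picked by symbol and matched to the table by their NCBI Gene IDs: Cldn11 (18417), Cldn3 (12739), Ocln (18260), F11r (16456), Jam2 (67374), Jam3 (83964), Tjp1 (21872), Gja1 (14609) and Cdh2 (12558). All 9 were found among the 22221 rows of the table, and all 9 passed the filter on low values. The data are RNA sequencing of testis from ICR mice, an outbred stock, in 4 groups of 3 libraries. The IMA10 mice received busulfan and then gut microbiota taken from donors dosed with alginate oligosaccharide, named Aligina Oligosaccharide in the labels, at 10 mg/kg. The IMC mice received busulfan and then gut microbiota from donors given ddH2O, and the Sa mice received busulfan and then saline. The Con mice had no treatment. Busulfan, a DNA-alkylating agent used to deplete spermatogonia, was given as 1 dose at 3 weeks of age, the microbiota followed for 2 weeks, and the testes were taken after another 3 weeks. The study's description mentions culture without naming a step, the age of the Con mice is not stated, and nothing says whether the libraries of a group came from separate animals, so the spread that p-values rest on may be technical.

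The blood-testis barrier is built between neighbouring Sertoli cells, the nurse cells of the seminiferous tubule, and divides the tubule into a basal part and an inner part where meiosis and sperm formation take place. Claudins and occludin are membrane proteins that seal the tight junction, junctional adhesion molecules sit beside them, and zonula occludens scaffolds such as Tjp1 tie them to actin. Cadherin contacts and gap junctions share the same membrane stretch, and the whole complex opens and reforms as spermatocytes pass through it.

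Levels are the authors' FPKM (fragment counts corrected for transcript length and library total), so genes can be set side by side per length. In bulk tissue, fewer cells of a type and less RNA per cell cannot be told apart. Summed FPKM per library ranged from 476127 to 576093, and read depth is unknown. IMA10 replicate 3 stood apart: its correlation across genes was 0.606 with IMA10 replicate 1 and 0.705 with replicate 2, and 0.918 to 0.926 with the Con libraries, so results that rest on it are also given without it. The table's Con columns carry another name prefix than the rest, so a batch and the untreated state cannot be told apart.

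Markers of several testis cell types, though not of all, differed between the busulfan groups and Con. Of all genes tested against Con by the limma fit below, 47.7% were higher and 23.9% lower in IMA10. The shares were 50.8% and 23.3% in IMC, and 52% and 19.2% in Sa. The Sertoli list (20 genes, with Clu and Inha the most abundant) was higher in 19 of 19 tested members in IMA10, IMC and Sa, and its other member, Krt18, was too low to test. Its summed level was 2900 to 16410 FPKM in IMA10, 10838 to 12650 in IMC, 8707 to 10394 in Sa and 555 to 674 in Con, with no member at 0 in any library. The Leydig list was higher in 7 of 7 members in each busulfan group, with sums of 1867 to 7057 FPKM in IMA10, 4255 to 13624 in IMC, 4374 to 8850 in Sa and 609.8 to 656 in Con. The endothelial list was higher in 7 of 8 members in IMA10 and in 8 of 8 in IMC and Sa, with sums of 28.6 to 97.4 FPKM in IMA10, 78.1 to 102 in IMC, 84.6 to 129 in Sa and 16.9 to 21.6 in Con. The 7 elongating spermatid genes were lower in all 3 busulfan groups, at summed levels of 26.4 to 3085 FPKM in IMA10, 90 to 205 in IMC, 164 to 1842 in Sa and 36064 to 38333 in Con. Macrophage markers were higher in 6 of 7 members in IMA10 and in 7 of 7 in IMC and Sa, and myoid markers were higher in 5 and lower in 1 of 6 in each. Spermatogonia markers were higher in 4 of 8 members in IMA10, 6 in IMC and 7 in Sa, and 1 was lower in IMA10 and in IMC. The 4 of 8 in IMA10 lay near the share of all genes. Of 8 spermatocyte markers, 2 were lower in IMA10 and 1 in IMC and in Sa and the rest did not pass, with sums of 75.2 to 2995 FPKM in IMA10, 355 to 876 in IMC, 599 to 1133 in Sa and 3345 to 3391 in Con. Round spermatid markers were lower in 6 of 7 members in each. Of 3 adipocyte markers tested, 1 was higher in IMA10 and 2 in IMC and in Sa, and 1 was lower in each. The epididymis list (4 genes in the table, of which the 1 tested was lower in IMC) summed to at most 5.28 FPKM in any library. The part of these cell types in the results below was not tested beyond the comparison with the Sertoli markers.

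Upstream sequence of 3 members is shown because Cldn11 and Gja1 were both higher in Sa than in Con, with the largest differences on the log2(FPKM + 1) scale, while Cldn3 was lower. By the ratio of mean FPKM, Jam2, which has no entry in the promoter table, was further apart (19.2, against 17.1 for Gja1 and 16.3 for Cldn11). Each run covers 250 bases before to 50 after the gene's start (RefSeq, build GRCm38.p6, plus strand for all 3). Both strands were searched for CCAAT (the CCAAT box), GGGCGG (a GC box), TATAAA (the TATA box), AGATAA (read by GATA factors), AACAAT (read by SOX factors) and AGAACA (part of a steroid receptor element). No matches overlap in these windows, and capitals mark a match on either strand.
Cldn11, chr3:31149670-31149969: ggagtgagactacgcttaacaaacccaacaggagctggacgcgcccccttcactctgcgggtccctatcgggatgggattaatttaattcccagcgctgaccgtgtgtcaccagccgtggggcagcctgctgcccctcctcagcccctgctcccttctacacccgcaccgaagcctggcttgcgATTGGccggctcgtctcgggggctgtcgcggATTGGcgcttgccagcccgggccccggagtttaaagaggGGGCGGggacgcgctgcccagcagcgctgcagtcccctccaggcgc
Gja1, chr10:56377050-56377349: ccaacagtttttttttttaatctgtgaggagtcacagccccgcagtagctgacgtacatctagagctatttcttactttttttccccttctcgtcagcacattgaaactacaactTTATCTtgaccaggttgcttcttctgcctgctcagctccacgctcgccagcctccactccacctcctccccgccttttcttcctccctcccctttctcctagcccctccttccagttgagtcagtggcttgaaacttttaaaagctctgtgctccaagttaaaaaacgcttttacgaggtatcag
Cldn3, chr5:134985964-134986263: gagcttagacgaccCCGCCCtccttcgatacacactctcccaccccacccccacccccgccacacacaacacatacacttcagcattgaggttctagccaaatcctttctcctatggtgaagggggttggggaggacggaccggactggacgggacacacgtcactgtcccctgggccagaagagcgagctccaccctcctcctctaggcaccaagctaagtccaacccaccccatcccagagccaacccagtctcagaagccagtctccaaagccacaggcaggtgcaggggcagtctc
The Cldn11 window held CCAAT on the minus strand at positions -66 and -35 from the start and GGGCGG at 4, and its GC content was 66.3%. The Gja1 window held only AGATAA, on the minus strand at -135, with 47.7% GC, and the Cldn3 window held only GGGCGG, on the minus strand at -236, with 60.7% GC. None of the 3 windows held the TATA box, the SOX letters or the steroid receptor letters searched. Of all 32851 promoters in the table, 37.4% held CCAAT, 35.7% GGGCGG, 13.6% TATAAA, 11.2% AGATAA, 10.7% AACAAT and 19% AGAACA, and the median GC content was 52.7%. Promoters of 6 of the 9 members were searched, and those of Jam2, Jam3 and Cdh2 were not. F11r had 4 CCAAT matches and 1 of GGGCGG, Tjp1 had 2 of GGGCGG, and Ocln, with a pair of overlapping starts, had GGGCGG at both and CCAAT at 1 of them.

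Against untreated testis, 8 of the 9 junction genes were higher in every busulfan group, and Cldn3 was the exception. By limma on log2(FPKM + 1), with p-values adjusted over the 15472 genes tested and a threshold of 0.05, 8 members were higher and 1 lower in Sa and in IMC, and 8 higher and none lower in IMA10. Of all genes tested, 52% were higher and 19.2% lower in Sa, 50.8% were higher and 23.3% lower in IMC, and 47.7% were higher and 23.9% lower in IMA10. The number of genes called lower depended on single libraries: leaving out each of the 12 in turn gave 2178 to 5401 in IMA10 (3694 with all), 2247 to 4964 in IMC (3603 with all) and 1954 to 4623 in Sa (2963 with all). Moves of over 1.5 times came from leaving out IMA10 replicate 1 or 2 or any Con replicate for IMA10, IMC replicate 3 or any Con replicate for IMC, and IMA10 replicate 3 or Con replicate 2 or 3 for Sa. The median log2 fold change of the members was 2.63 in IMA10, 3.09 in IMC and 2.86 in Sa, beside 0.41, 0.52 and 0.60 for all genes tested and 3.24, 3.65 and 3.47 for the Sertoli markers. The members' median in IMA10 was 3.34 without IMA10 replicate 3. With median-of-ratios scaling, which moved the median of all genes to between -0.03 and -0.02, all genes split into 5831 higher and 6060 lower in Sa, and 7 members were higher in Sa, 8 in IMC and 7 in IMA10. The 3 comparisons share the Con libraries and are not independent of each other.

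**Figure D1:**
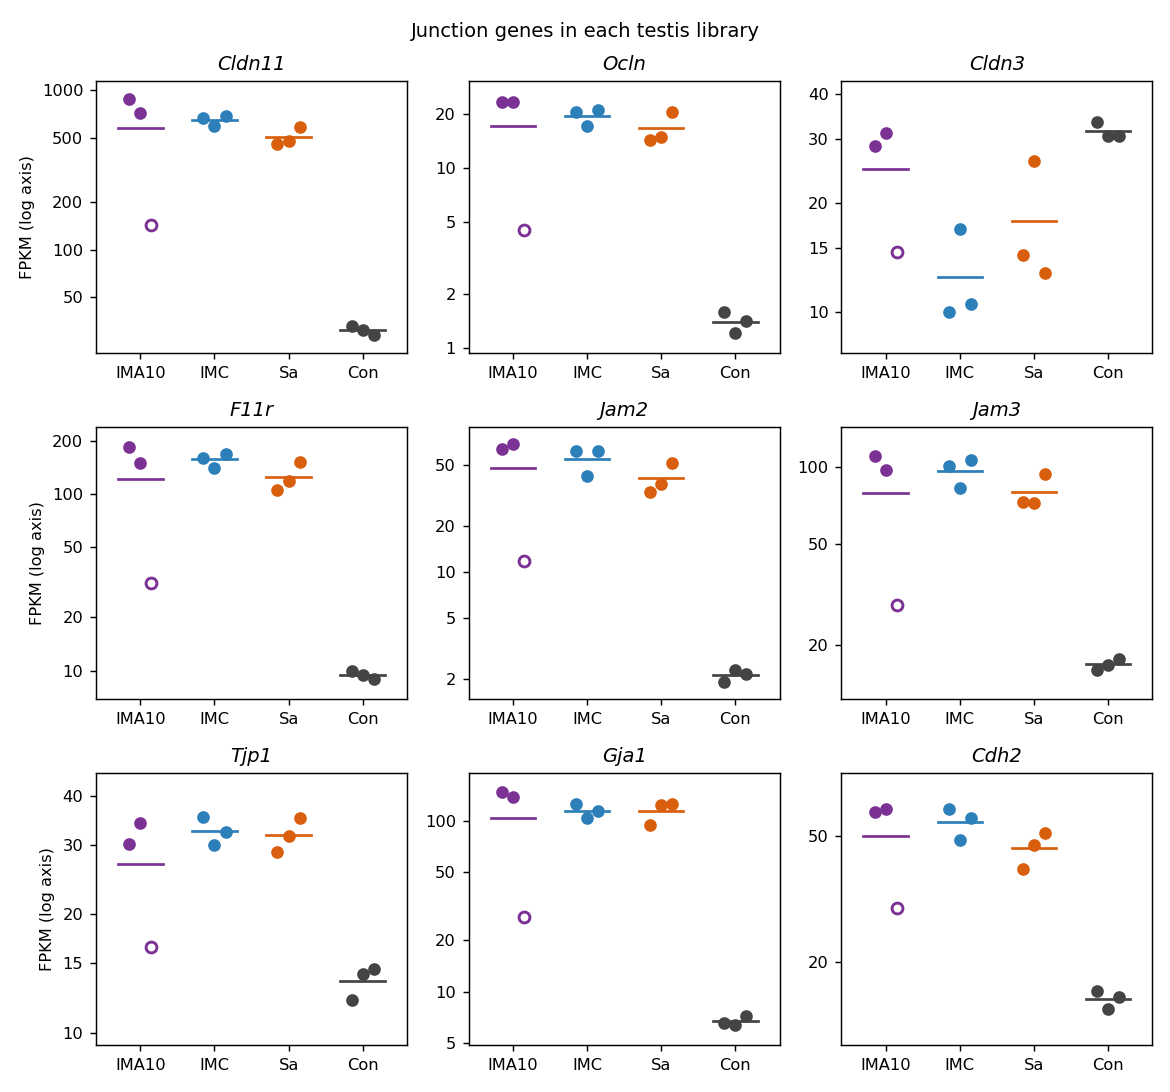
FPKM of each junction gene (log axis, 1 panel per gene) in the 3 libraries of IMA10, IMC, Sa and Con; horizontal lines are group means and the open circle is IMA10 replicate 3. For 8 genes all 9 busulfan libraries lie above the Con libraries, with IMA10 replicate 3 the lowest of them, whereas Cldn3 lies at 9.97 to 31.12 FPKM in the busulfan libraries and at 30.58 to 33.43 in Con. The share of all genes whose busulfan and Con libraries lie apart in this way was not counted, and 47.7% to 52% of all genes tested were called higher.

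Among the sealing proteins, Cldn11, the claudin that mouse Sertoli cells need to form tight junction strands, was the most abundant member in each busulfan group. It was at 878.44, 719.28 and 142.53 FPKM in IMA10, at 666.79, 593.23 and 686.46 in IMC, at 457.86, 477.96 and 583.65 in Sa, and at 32.99, 31.37 and 29.01 in Con. Every busulfan library, including IMA10 replicate 3, was above every Con library. How many of all genes lie apart from Con in this way was not counted, here and for the members below. The log2 fold change from Con was 3.81 ± 0.54 in IMA10 (SE, limma adjusted p = 0.000887), 4.34 ± 0.54 in IMC (adjusted p = 0.000308) and 3.98 ± 0.54 in Sa (adjusted p = 0.000353). Without IMA10 replicate 3 the IMA10 value was 4.63 ± 0.13.

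Ocln, which encodes occludin, a 4-pass membrane protein of the tight junction, was the lowest member in Con. It measured 23.33, 23.39 and 4.51 FPKM in IMA10, 20.39, 17.20 and 21.04 in IMC, 14.40, 14.92 and 20.49 in Sa, and 1.59, 1.22 and 1.41 in Con. The groups did not overlap with Con. Its log2 fold change was 2.63 ± 0.48 in IMA10, 3.09 ± 0.48 in IMC and 2.86 ± 0.48 in Sa (SE, limma adjusted p = 0.00126, 0.000366 and 0.00055 in that order). Without IMA10 replicate 3 the IMA10 value was 3.34 ± 0.16, above those of IMC and Sa.

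Cldn3 encodes a claudin that in mouse Sertoli cells enters newly forming barrier junctions. It was at 28.70, 31.12 and 14.59 FPKM in IMA10, at 9.97, 16.91 and 10.49 in IMC, at 14.32, 26.19 and 12.77 in Sa, and at 33.43, 30.58 and 30.71 in Con. The IMC and Sa libraries were all below Con, while IMA10 replicate 2 lay within the Con range, replicate 1 just below it and replicate 3 among the Sa libraries. The log2 fold change was -0.40 ± 0.34 in IMA10 (limma adjusted p = 0.295), -1.31 ± 0.34 in IMC (adjusted p = 0.00562) and -0.86 ± 0.34 in Sa (adjusted p = 0.0412). The Sa call was lost in 7 of the 12 fits that left out 1 library, those without IMC replicate 1 or 3, Sa replicate 1 or 3, or any Con replicate, and its adjusted p across the 12 fits ran from 0.00952 to 0.142. The IMA10 value was -0.08 ± 0.29 without IMA10 replicate 3, and with median-of-ratios scaling it was -0.95 ± 0.30 (adjusted p = 0.0175). The RefSeq annotation places an RNA gene over Cldn3 (Wbscr25), and others over Ocln, Jam2 and Jam3. None of these has a row here, and whether strand was used in counting is not given in the sources used here, so reads of the overlapping genes cannot be told apart.

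The makeup of the claudin transcripts was not alike in busulfan and Con testis. Cldn11 and Cldn3 were about equally abundant in Con, with Cldn11 to Cldn3 ratios of 0.987, 1.03 and 0.945. The ratio was 30.6, 23.1 and 9.77 in IMA10, 66.9, 35.1 and 65.4 in IMC, and 32.0, 18.2 and 45.7 in Sa. The geometric means were 19 in IMA10, 53.5 in IMC and 29.9 in Sa, against 0.985 in Con. No library of a busulfan group overlapped with Con, and each exact two-sided permutation test gave p = 0.1, the smallest possible with 3 against 3 (0.18 adjusted over 18 comparisons of 3 ratios). IMA10 lay below IMC in every library (exact p = 0.1, adjusted 0.18). Over the 23 claudin genes in the table, of which 10 reached 1 FPKM in at least 3 libraries, Cldn11 made up 82.5% ± 6.8 of the summed FPKM in IMA10, 86.8% ± 0.82 in IMC, 82.5% ± 1.0 in Sa and 34.2% ± 1.1 in Con (SD, n = 3). Cldn3 made up 4.74% ± 2.6 in IMA10, 1.70% ± 0.65 in IMC, 2.96% ± 1.4 in Sa and 34.7% ± 1.0 in Con. Their sum was thus mainly Cldn11 in the busulfan groups and evenly split in Con. Cldn34d, named here after its values were seen, also took a smaller share than in Con, at 0.711% ± 1.2 in IMA10, 0.14% ± 0.097 in IMC, 0.165% ± 0.03 in Sa and 8.12% ± 3.4 in Con. Cldn5, a claudin of blood vessel walls that mouse Sertoli cells also express, took 6.47% ± 1.6 in IMA10, 6.11% ± 0.59 in IMC, 9.33% ± 1.3 in Sa and 9.92% ± 1.9 in Con. The Cldn5 shares overlapped with Con in Sa and, through IMA10 replicate 3 (8.26%), in IMA10.

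**Figure D2:**
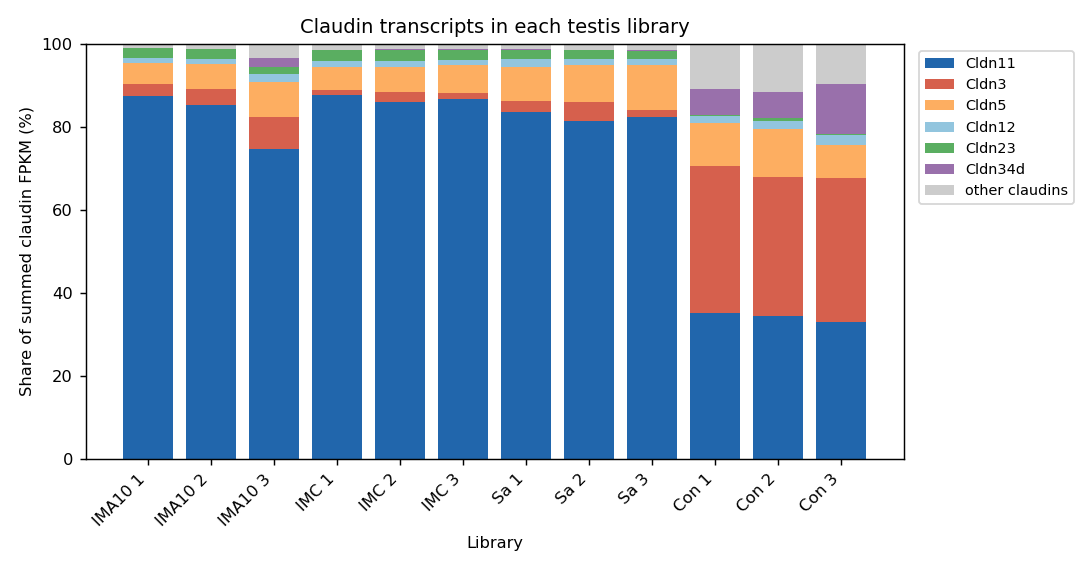
Share of the summed FPKM of 23 claudin genes (%) taken by 6 named claudins and the rest, as stacked bars for each of the 12 libraries. Cldn11 takes 74.8% to 87.7% in the busulfan libraries and 32.9% to 35.1% in Con, and Cldn3 takes 1.31% to 7.66% in the busulfan libraries and 33.6% to 35.6% in Con.

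The junctional adhesion molecules, immunoglobulin-type proteins that bind across the cleft between neighbouring cells, were all higher in the busulfan groups but by different amounts. F11r, which encodes JAM-A and is also found on endothelium and blood cells, measured 184.26, 149.81 and 31.13 FPKM in IMA10, 160.48, 140.52 and 169.11 in IMC, 105.60, 117.85 and 151.09 in Sa, and 9.88, 9.44 and 8.96 in Con. Jam2, which encodes JAM-B, measured 63.79, 68.24 and 11.84 FPKM in IMA10, 61.76, 42.11 and 61.30 in IMC, 33.49, 37.78 and 51.30 in Sa, and 1.92, 2.30 and 2.16 in Con. Jam3 encodes JAM-C, which mouse spermatids carry and need for polarization. It measured 110.93, 97.19 and 28.79 FPKM in IMA10, 101.20, 82.81 and 106.75 in IMC, 73.04, 72.06 and 94.29 in Sa, and 15.95, 16.74 and 17.69 in Con. No busulfan library overlapped with Con for any of the 3 genes, a trait whose share among all genes was not counted. The log2 fold change of F11r was 3.21 ± 0.53 in IMA10, 3.92 ± 0.53 in IMC and 3.58 ± 0.53 in Sa (SE, limma adjusted p at most 0.000976). That of Jam2 was 3.63 ± 0.54 in IMA10, 4.14 ± 0.54 in IMC and 3.72 ± 0.54 in Sa (adjusted p at most 0.000916). That of Jam3 was 1.95 ± 0.41 in IMA10, 2.45 ± 0.41 in IMC and 2.17 ± 0.41 in Sa (adjusted p at most 0.00235). Without IMA10 replicate 3 the IMA10 values were 4.0 ± 0.16 for F11r, 4.42 ± 0.20 for Jam2 and 2.56 ± 0.15 for Jam3, the highest of the 3 groups for each gene.

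Jam3 was the most abundant of the 3 in Con and F11r was the most abundant in each busulfan library. The ratio of F11r to Jam3 had geometric means of 1.40 in IMA10, 1.62 in IMC and 1.56 in Sa, against 0.561 in Con. The ratio of Jam2 to Jam3 had geometric means of 0.55 in IMA10, 0.563 in IMC and 0.508 in Sa, against 0.126 in Con. For both ratios every busulfan library was above every Con library, and each exact permutation test against Con gave p = 0.1, adjusted 0.18. Among the busulfan groups the exact p-values of these 2 ratios ran from 0.3 to 0.9.

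Tjp1, the scaffold ZO-1 on the inner face of the tight junction, had the smallest positive fold change of the 9 members. It was at 30.10, 34.09 and 16.50 FPKM in IMA10, at 35.23, 29.99 and 32.34 in IMC, at 28.81, 31.58 and 35.14 in Sa, and at 12.09, 14.10 and 14.49 in Con. The groups did not overlap with Con, but IMA10 replicate 3 was close to it. The log2 fold change was 0.88 ± 0.24 in IMA10 (limma adjusted p = 0.00879), 1.20 ± 0.24 in IMC (adjusted p = 0.00132) and 1.17 ± 0.24 in Sa (adjusted p = 0.00159). With median-of-ratios scaling the calls in IMA10 (0.35 ± 0.21, adjusted p = 0.149) and Sa (0.41 ± 0.21, adjusted p = 0.0955) were lost. The IMA10 call was also lost with quantile normalization (adjusted p = 0.056) and in a fit of IMA10 and Con alone (adjusted p = 0.064). Leaving out IMA10 replicate 3 gave 1.19 ± 0.12 in IMA10 (limma adjusted p = 7.5e-06).

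Gja1 encodes connexin 43, the gap junction protein that couples Sertoli cells to each other and to germ cells. It was at 147.71, 137.61 and 27.47 FPKM in IMA10, at 125.46, 104.03 and 114.72 in IMC, at 94.92, 123.63 and 125.99 in Sa, and at 6.54, 6.35 and 7.25 in Con. All busulfan libraries were above Con, and IMA10 replicate 3 was the lowest of them. The log2 fold change was 3.44 ± 0.51 in IMA10, 3.91 ± 0.51 in IMC and 3.90 ± 0.51 in Sa (SE, limma adjusted p at most 0.000916). The IMA10 value was 4.22 ± 0.14 without IMA10 replicate 3, above those of IMC and Sa.

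Cdh2 encodes N-cadherin, the main classical cadherin between Sertoli cells and between Sertoli and germ cells. It was at 59.61, 60.99 and 29.62 FPKM in IMA10, at 60.71, 48.44 and 56.79 in IMC, at 39.22, 46.95 and 50.98 in Sa, and at 16.20, 14.20 and 15.53 in Con. Again the busulfan libraries did not overlap with Con. The log2 fold change was 1.58 ± 0.26 in IMA10, 1.78 ± 0.26 in IMC and 1.51 ± 0.26 in Sa (SE, limma adjusted p at most 0.000975). Leaving out IMA10 replicate 3 gave 1.91 ± 0.13 in IMA10.

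The order of the mean levels differed between Con and the busulfan groups. In Con, Cldn3 (31.6 ± 1.6 FPKM; SD, n = 3) and Cldn11 (31.1 ± 2.0) led and did not differ beyond their spread, followed by Jam3 (16.8 ± 0.87), Cdh2 (15.3 ± 1.0) and Tjp1 (13.6 ± 1.3), of which neighbours lay within about their spread. F11r (9.43 ± 0.46), Gja1 (6.71 ± 0.47), Jam2 (2.13 ± 0.19) and Ocln (1.41 ± 0.19) came next. In Sa the order was Cldn11 (506 ± 68), F11r (125 ± 24), Gja1 (115 ± 17), Jam3 (79.8 ± 13), Cdh2 (45.7 ± 6.0), Jam2 (40.9 ± 9.3), Tjp1 (31.8 ± 3.2), Cldn3 (17.8 ± 7.3) and Ocln (16.6 ± 3.4). The libraries of F11r and Gja1, Cdh2 and Jam2, Jam2 and Tjp1, and Cldn3 and Ocln overlapped in Sa. IMA10 had the same order as Sa, and IMC differed from it only in that Ocln (19.5 ± 2.1) stood above Cldn3 (12.5 ± 3.9). Without replicate 3, Jam2 (66.0 FPKM) stood above Cdh2 (60.3) in IMA10, as it did in both remaining libraries.

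**Figure D3:**
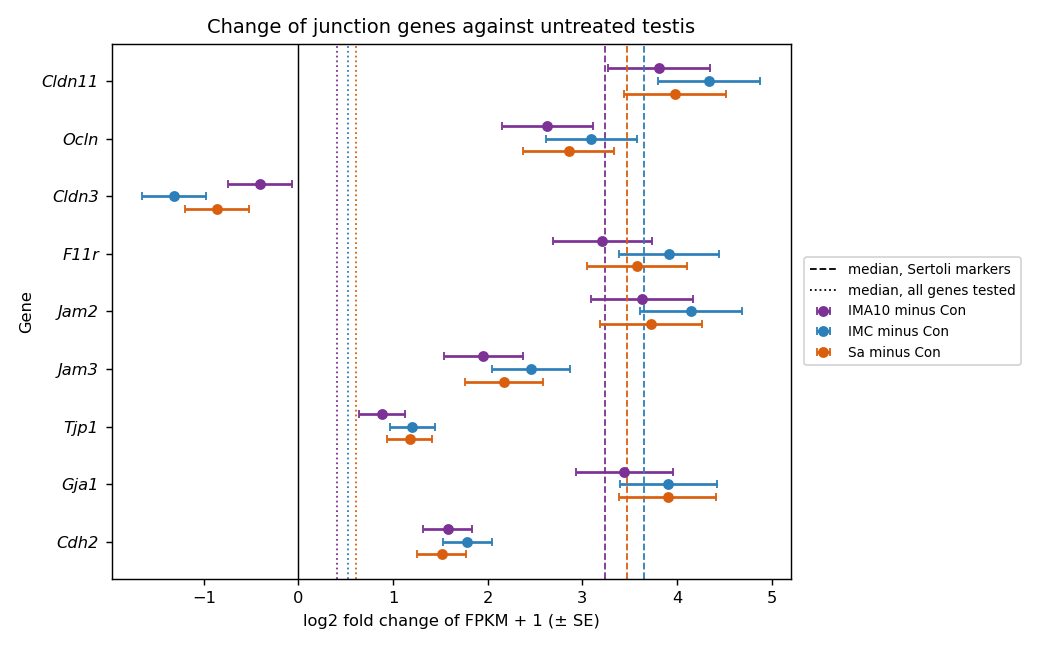
log2 fold change of FPKM + 1 (points, with bars of ± 1 SE) of the 9 junction genes in IMA10, IMC and Sa against Con, with dashed lines at the median of the Sertoli markers and dotted lines at the median of all genes tested. Cldn11, Jam2, Gja1 and F11r lie near the Sertoli median, Ocln lies below it, Jam3, Cdh2 and Tjp1 lie between both medians, and Cldn3 lies below 0.

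To ask which junction genes differed from Con by more or less than Sertoli transcripts did, the mean log2 level of the 20 Sertoli markers in each library was subtracted from every gene of that library. On this scale 2 members were higher and 5 lower in Sa and in IMC, and 1 was higher and 5 lower in IMA10. Among all genes tested, 0.543% were higher and 93.6% lower in Sa, 0.562% were higher and 94.7% lower in IMC, and 0.304% were higher and 95.6% lower in IMA10, so a gene lower on this scale did as nearly all genes did. The median of the members was -0.58 in IMA10, -0.49 in IMC and -0.45 in Sa, beside -2.80, -3.06 and -2.70 for all genes.

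The rise of Cldn11 from Con exceeded the mean rise of the Sertoli markers in each busulfan group. The excess was 0.60 ± 0.17 log2 units in IMA10 (limma adjusted p = 0.00625), 0.76 ± 0.17 in IMC (adjusted p = 0.00155) and 0.67 ± 0.17 in Sa (adjusted p = 0.00361). The relative log2 levels of Cldn11 were 2.74, 2.62 and 2.31 in IMA10, 2.74, 2.67 and 2.73 in IMC, 2.60, 2.57 and 2.70 in Sa, and 1.94, 1.98 and 1.95 in Con. All busulfan libraries were above Con on this scale too. The markers themselves scattered about their mean: of the 19 tested, 6 were higher and 2 lower in IMA10 (-0.78 to 1.05), 5 higher and 1 lower in IMC (-1.06 to 1.19) and 5 higher and 2 lower in Sa (-0.89 to 1.10), and the Cldn11 values lay inside these ranges. The IMA10 call was lost with a pseudocount of 0.1 (0.34, adjusted p = 0.0615) and in a fit of IMA10 and Con alone (adjusted p = 0.17). The subtracted mean includes Krt18, and 2 to 4 of the 20 markers were under 1 FPKM in each Con library. Changes of such low genes are understated by log2(FPKM + 1), and their part in the excess was not tested.

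Gja1 passed in Sa (0.59 ± 0.18, limma adjusted p = 0.009) and not in IMC (0.33 ± 0.18, adjusted p = 0.102) or IMA10 (0.23 ± 0.18, adjusted p = 0.228). Jam2 passed in IMC (0.57 ± 0.21, adjusted p = 0.023), a call lost without IMC replicate 1 or 3 or Con replicate 1, with quantile normalization and with the median of the markers, at adjusted p-values of 0.0571 to 0.0984. Jam2 was at 0.42 ± 0.21 in IMA10 (adjusted p = 0.0744) and 0.42 ± 0.21 in Sa (adjusted p = 0.0782), and with a pseudocount of 0.1 both passed (adjusted p = 0.0259 in IMA10 and 0.0268 in Sa). F11r did not pass in any group, at 0.00 ± 0.17 in IMA10, 0.34 ± 0.17 in IMC and 0.27 ± 0.17 in Sa. Without IMA10 replicate 3, which narrowed the shared error, 3 members were higher in IMA10 (Cldn11, Jam2 and Gja1) and 4 in IMC and in Sa (those 3 and F11r), where 0.746%, 0.947% and 1.03% of all genes were higher.

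Cldn3 was far below the Sertoli markers' change in each busulfan group, by -3.61 ± 0.39 in IMA10, -4.89 ± 0.39 in IMC and -4.17 ± 0.39 in Sa (limma adjusted p at most 0.000174), beyond the median of all genes on this scale. Its relative log2 levels were -2.15, -1.87 and -0.89 in IMA10, -3.18, -2.38 and -3.18 in IMC, -2.30, -1.57 and -2.71 in Sa, and 1.95, 1.94 and 2.03 in Con. The library with the least negative value among the busulfan libraries was IMA10 replicate 3. Tjp1 was lower by -2.33 ± 0.31 in IMA10, -2.37 ± 0.31 in IMC and -2.13 ± 0.31 in Sa, Cdh2 by -1.63 ± 0.29, -1.79 ± 0.29 and -1.79 ± 0.29, and Jam3 by -1.25 ± 0.18, -1.12 ± 0.18 and -1.13 ± 0.18, in the same order of groups (limma adjusted p at most 0.000481). These 3 were less negative than the median of all genes. Ocln was lower by -0.58 ± 0.16 in IMA10, -0.49 ± 0.16 in IMC and -0.45 ± 0.16 in Sa (adjusted p = 0.00568, 0.0149 and 0.0221 in that order). With a pseudocount of 0.1, which weighs its low Con level differently, none of the Ocln calls held (adjusted p = 0.0899, 0.257 and 0.393), and with median-of-ratios scaling the call in Sa did not (adjusted p = 0.0562). Leaving out Sa replicate 1 or 2 or Con replicate 1 or 3 ended the Ocln call in Sa, and leaving out IMC replicate 2 or Con replicate 3 ended it in IMC.

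**Figure D4:**
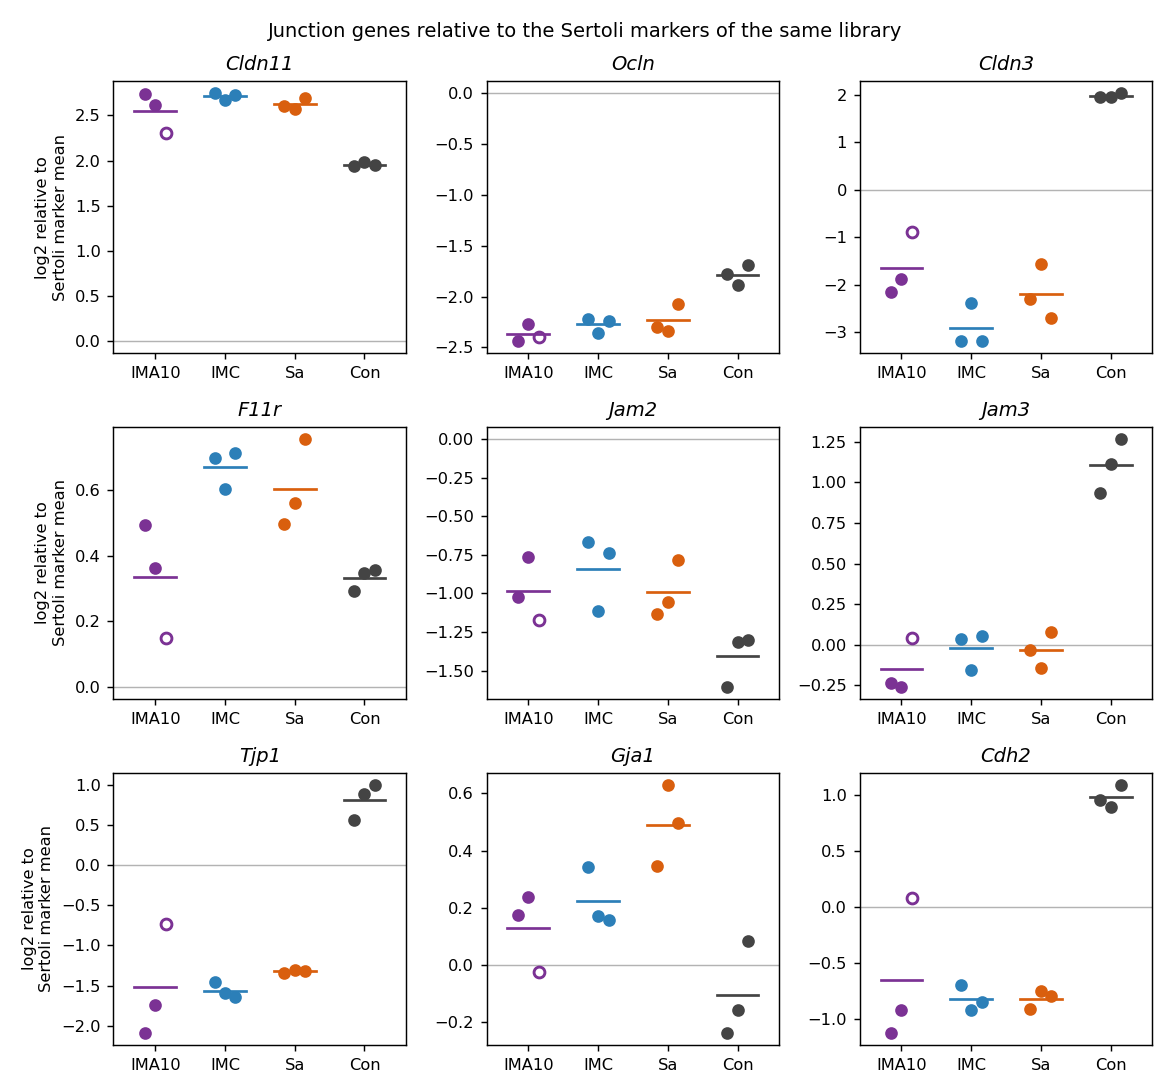
log2(FPKM + 1) of each junction gene minus the mean of the 20 Sertoli markers in the same library, for the 3 libraries of IMA10, IMC, Sa and Con; horizontal lines are group means and the open circle is IMA10 replicate 3. Cldn11 lies at 2.31 to 2.74 in the busulfan libraries and at 1.94 to 1.98 in Con, while Cldn3 lies at -3.18 to -0.89 in the busulfan libraries and at 1.94 to 2.03 in Con.

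The comparisons of IMA10 with IMC and Sa, and of IMC with Sa, ask whether the transferred microbiota changed the busulfan testis. No member passed the limma threshold in any of the 3 comparisons, and neither did any of the 15472 genes (0% called in each; at an unadjusted p under 0.05 there were 134 genes for IMC minus Sa, 928 for IMA10 minus Sa and 328 for IMA10 minus IMC). The differences of the members ranged from -0.46 to 0.46 for IMA10 minus Sa, from -0.70 to 0.91 for IMA10 minus IMC and from -0.45 to 0.42 for IMC minus Sa, with SEs of 0.24 to 0.54. The largest was that of Cldn3, 24.8 ± 8.9 FPKM in IMA10 and 12.5 ± 3.9 in IMC (SD, n = 3), a log2 difference of 0.91 ± 0.34 (unadjusted p = 0.0229, limma adjusted p = 1.00). Without IMA10 replicate 3 it was 1.24 ± 0.29 (adjusted p = 0.0731). For IMC minus Sa, that fit gave the members the same differences with SEs of 0.11 to 0.26, and no gene passed. Cldn11 (0.36 ± 0.12 in that fit) was the only member whose IMC libraries all lay above Sa.

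The direction of most of the differences of IMA10 from Sa and IMC depended on IMA10 replicate 3. It was the lowest busulfan library for 8 of the 9 members, and it was also the lowest of them for the Sertoli markers (mean log2 level of 4.86, against 6.24 to 7.04 in the other busulfan libraries) and the highest for the elongating spermatid genes (3085 FPKM, against 26.4 to 1842). With it, 7 members had negative IMA10 minus Sa differences, and without it all 9 were positive. In that fit 4 members were higher in IMA10 than in Sa: Cldn11 (0.66 ± 0.13, limma adjusted p = 0.0136), Jam2 (0.70 ± 0.20, adjusted p = 0.028), Ocln (0.49 ± 0.16, adjusted p = 0.0425) and Cdh2 (0.40 ± 0.13, adjusted p = 0.0433). Of all 15412 genes in that fit, 7.38% were higher and 24.7% lower. The mean levels without that library were 799 FPKM for Cldn11 in IMA10, against 506 ± 68 in Sa, and 66.0 FPKM for Jam2 in IMA10, against 40.9 ± 9.3 in Sa. The Sertoli marker sums of IMA10 replicates 1 and 2 were 16410 and 13217 FPKM, also above the 8707 to 10394 FPKM of Sa. No member passed for IMA10 minus IMC without that library. Over the 12 fits that left out 1 library, 0 of all genes were higher and 0 to 2 lower in that comparison.

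A further list of 55 genes of the tight, adherens, gap and desmosomal junctions was set beside the 9 members, and 42 of them were high enough to test. Of these, 29 were higher and 2 lower in IMA10, 33 higher and 2 lower in IMC, and 35 higher and 2 lower in Sa, with median log2 fold changes of 1.48, 1.94 and 1.89. Of all genes tested, 47.7% were higher and 23.9% lower in IMA10, 50.8% and 23.3% in IMC, and 52% and 19.2% in Sa. Tight junction genes were higher in 13 of 18 tested in IMA10, 14 in IMC and 15 in Sa, and none was lower. Lsr, which marks contacts where 3 cells meet, averaged 262 ± 175 FPKM in IMA10, 316 ± 49 in IMC and 258 ± 48 in Sa, against 11.7 ± 1.0 in Con (SD, n = 3), and its log2 fold change in Sa was 4.34 ± 0.56 (limma adjusted p = 0.000351). Cgn, the tight junction plaque protein cingulin, averaged 114 ± 73 FPKM in IMA10, 128 ± 4.4 in IMC and 115 ± 18 in Sa, against 11.4 ± 0.6 in Con (3.22 ± 0.50 in Sa, adjusted p = 0.000408). Prkci, a kinase of the polarity complex, was higher in Sa by 2.72 ± 0.42 and Cldn12 by 1.98 ± 0.31.

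Adherens and ectoplasmic specialization genes were higher in 13 of 17 tested in IMA10 and in 14 of 17 in IMC and in Sa. Of all genes tested, 47.7% to 52% were higher and 19.2% to 23.9% lower in the 3 groups. Ctnnb1, the beta-catenin that binds cadherin tails, averaged 127 ± 57 FPKM in IMA10, 149 ± 11 in IMC and 160 ± 7.4 in Sa, against 27 ± 2.7 in Con (2.53 ± 0.32 in Sa, limma adjusted p = 0.000344). Espn, which encodes the actin bundler espin of the ectoplasmic specialization, was the most abundant of them, at 255 ± 165 FPKM in IMA10, 249 ± 11 in IMC and 220.1 ± 10.1 in Sa, against 24.5 ± 3.0 in Con (3.12 ± 0.51 in Sa, adjusted p = 0.000467). Ctnna1, Ctnnd1 and the integrin gene Itgb1 were higher in Sa by 3.18 ± 0.46, 2.25 ± 0.32 and 2.75 ± 0.40. The 2 genes that were lower in each group, named because they were the only ones, were Nectin3 and Plec. Nectin3, the nectin that mouse spermatids place opposite the Nectin2 of Sertoli cells, averaged 32.3 ± 46 FPKM in IMA10, 17.9 ± 8.1 in IMC and 21.1 ± 6.6 in Sa, against 117 ± 11 in Con. Its log2 fold change was -3.0 ± 0.91 in IMA10, -2.75 ± 0.91 in IMC and -2.47 ± 0.91 in Sa (adjusted p = 0.0143, 0.0194 and 0.0319 in that order), and without IMA10 replicate 3 it was -4.27 ± 0.48 in IMA10. Nectin2, named beside it after its values were seen, averaged 169 ± 111 FPKM in IMA10, 196 ± 17 in IMC and 160 ± 32 in Sa, against 24.8 ± 1.3 in Con, and was higher in each (adjusted p at most 0.00267). Plec, which encodes the linker plectin, averaged 33.4 ± 12 FPKM in IMA10, 28.5 ± 4.5 in IMC and 32.7 ± 1.9 in Sa, against 61.1 ± 3.5 in Con (-0.88 ± 0.23 in Sa, adjusted p = 0.00574).

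Of the 4 gap junction genes tested, 3 were higher in IMA10 and in IMC and 4 in Sa. Gja6, the rodent testis connexin 33, averaged 20.5 ± 11 FPKM in IMA10, 23.2 ± 2.3 in IMC and 20.5 ± 3.0 in Sa, against 2.28 ± 0.11 in Con (2.70 ± 0.39 in Sa, limma adjusted p = 0.000362). Gja4 was higher in Sa by 2.13 ± 0.35 and Gja5 was also higher there (adjusted p = 0.00174). Gjc1 passed in Sa (0.94 ± 0.35, adjusted p = 0.0321) and was at 0.24 ± 0.35 in IMC and 0.06 ± 0.35 in IMA10. The 3 desmosomal genes tested gave 0 calls in IMA10, and in IMC and Sa the plakophilins Pkp2 and Pkp4 were higher (0.88 ± 0.17 and 0.62 ± 0.15 in Sa). Dsp, Dsg2 and Dsc2, the core of the desmosome, were under the filter at means below 1 FPKM. Of 9 genes that regulate the barrier, 8 were higher in each busulfan group, beside 47.7% to 52% of all genes tested. Among them Tgfb3, a cytokine that loosens the rat barrier, was higher in Sa by 3.45 ± 0.51, the kinase gene Mapk14 by 2.31 ± 0.34 and the intermediate filament gene Vim by 3.71 ± 0.51. The exception was Ptk2, the focal adhesion kinase, at 0.19 ± 0.15 in Sa (adjusted p = 0.253).

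On the scale relative to the Sertoli markers, 34 to 36 of the 42 genes were lower in the 3 groups, again like nearly all genes, and Lsr was the only one higher in all 3 (1.03 ± 0.19 in Sa, limma adjusted p = 0.000704). In the fit without IMA10 replicate 3, 7.38% of all genes were higher and 24.7% lower in IMA10 than in Sa. Of the 42 genes, 7 were higher and 6 lower. The highest of these was Cldn23 (0.84 ± 0.13, adjusted p = 0.0136) and the lowest Nectin3 (-1.80 ± 0.48, adjusted p = 0.0229), both named after their values were seen.

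**Figure D5:**
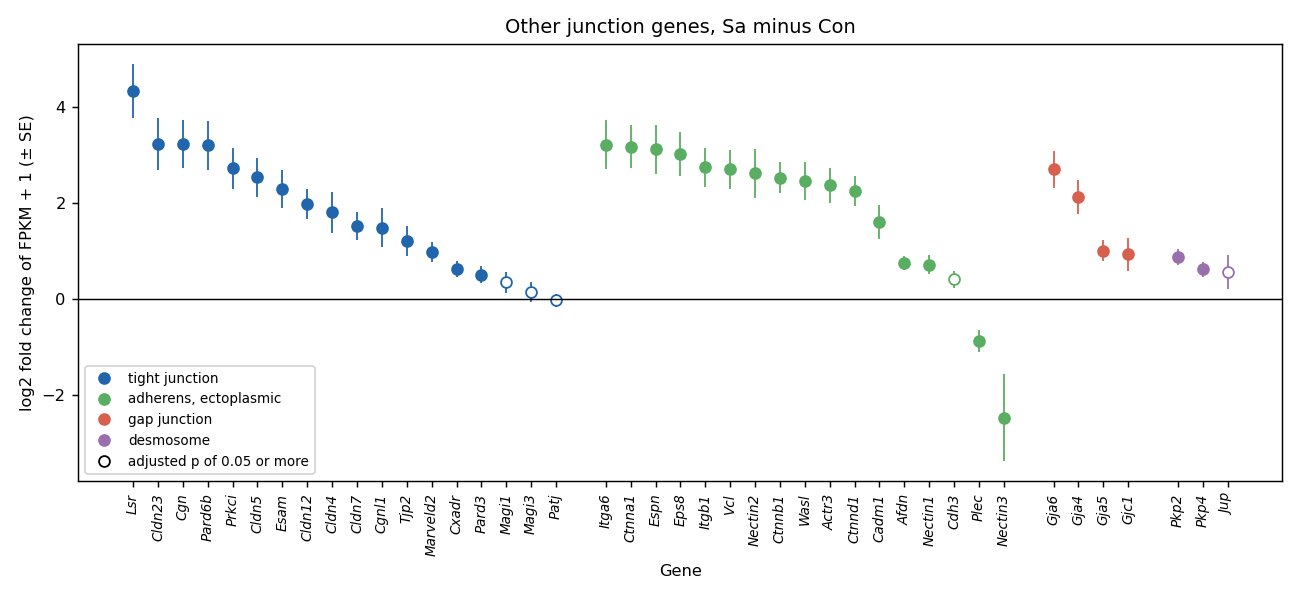
log2 fold change of FPKM + 1 in Sa against Con (points, with bars of ± 1 SE) for the 42 other junction genes tested, grouped by junction type; open circles have an adjusted p of 0.05 or more. Lsr (4.34) is the highest, and Nectin3 (-2.47) and Plec (-0.88) are the filled points below 0.

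The genes whose profile over the 12 libraries was most like each member were sought among 9654 genes with a mean of at least 5 FPKM, by Pearson's r of log2(FPKM + 1), as a description without a test. All libraries share the split between busulfan and Con, which alone raises such values. For 8 members the closest genes reached r of 0.993 or more: Tmem184a, Akr1b8 and Ctsl for Cldn11, Casp6, Rap2b and Sesn1 for Ocln, Acss1 and Slc30a2 for F11r, Emb, Pvr and Fam214a for Jam2, Fuca2, Entpd5 and Tmco4 for Jam3, Casq2, Nsd1 and Abi2 for Tjp1, Peg10, Exoc1 and Tstd2 for Gja1, and Fam214a, Sh2d4a and Siae for Cdh2. Fam214a was among the closest genes of both Jam2 and Cdh2. For Cldn3 the closest genes were Amotl1 (r = 0.72), Srpk2 (0.718) and Cyth1 (0.707), so no gene followed it as closely as for the other members.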

How the data were processed

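Testis RNA was sequenced in 12 libraries, 3 per group, and groups and replicate numbers were taken from the labels. The authors' deposited table gives FPKM per gene and library, per the file headers, and all value columns were used. Aligner, counter, build and strand setting: not given in the sources used here. The table holds no counts, and a search of low values for steps of 1 read found no common ratio (at most 0.888% of low genes in 66 library pairs), so depth and counting error are unknown. FPKM is relative to each library's total, so a fall of abundant transcripts raises all others. Of 22221 rows, 20288 carry a Gene ID, and 20141 of these matched a RefSeq symbol (GRCm38.p6, used for names, overlaps and promoters).

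Values were taken as log2(FPKM + 1), a scale that understates changes of low genes. A gene entered the fit if 3 or more libraries had 1 FPKM or more, which left 15472. limma 3.58.1 under R 4.3.3 fitted 4 group means to all 12 libraries (lmFit, eBayes with a variance trend), with Benjamini-Hochberg adjustment over all of them and a threshold of 0.05. The same fit was repeated after subtracting the mean of the 20 Sertoli markers. Ratios were compared by exact two-sided permutation. The fit was tested on simulated data. The 9 junction genes and all lists were chosen with earlier results of these data known. All 9 were named throughout. Of each other list, the rule names up to 4 genes with the smallest p at 1 FPKM or more and the most abundant one, and of each member the 3 genes of highest r, leaving out predicted symbols. Others are marked where named. Of the genes this rule names, 2 are not reported here. Alternatives were median-of-ratios and quantile scaling, a pseudocount of 0.1, no filter and a filter of 5 FPKM, fits of the compared groups alone, a replicate block, leaving out each library, and the median of the Sertoli markers.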

Additional observations from a re-analysis of the deposited data

How the results depend on the processing

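All 8 members that were higher than Con kept a positive fold change in IMA10, IMC and Sa under every alternative run. Of 1566 member values under alternatives, 1491 kept direction and side of the threshold, 28 lost the call, 13 gained it and 34 changed sign; except where a value or a construction is given, the cause was not tested.

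With median-of-ratios scaling, the median of all genes for Sa minus Con was -0.02 in place of 0.60, the all-gene calls became 5831 higher and 6060 lower in Sa, 6027 and 6276 in IMC and 5714 and 5736 in IMA10, and 1 member was lower in IMA10. The other junction genes lower were then 4 in IMC and 4 in IMA10, and 2 were higher in IMC relative to the Sertoli markers. With quantile normalization 4 other junction genes were lower in each busulfan group, all-gene calls were 6082 higher and 4486 lower in Sa, 6408 and 4908 in IMC and 6414 and 4431 in IMA10, and 1 member was higher in IMC relative to the Sertoli markers, as also with the median of those markers. With a pseudocount of 0.1, other junction genes higher relative to the Sertoli markers were 2 in IMA10, 3 in IMC and 2 in Sa. The filter of 5 FPKM tests fewer genes, and 22 other junction genes in Sa and 23 in IMC were then lower on that scale. With only the groups compared, 1 other junction gene was lower in IMA10, and relative to the Sertoli markers 4 members were higher in IMC, 0 in IMA10, and 0 other junction genes were higher in IMA10.

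Leaving out each library in turn gave 0 to 1 members lower in Sa, 0 to 4 members, 0 to 7 other junction genes higher and 0 to 6 lower for IMA10 minus Sa, and 1 to 2, 1 to 2 and 1 to 3 other junction genes lower against Con in Sa, IMC and IMA10. Relative to the Sertoli markers it gave 1 to 3 members higher in IMA10, 1 to 4 in IMC and 2 to 4 in Sa. The replicate numbers do not pair the samples (5 of 18 correlations over 0.1, from -0.765 to 0.546), and the replicate block left 8 members higher in each busulfan group and 1 other junction gene lower in Sa.

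No value that had passed changed sign. For IMA10 minus Sa without IMA10 replicate 3, Cldn11 (0.66), Jam2 (0.70) and Ocln (0.49) changed sign and then passed. Their limma adjusted p-values were 0.0136, 0.028 and 0.0425. The other sign changes fell among values that passed neither before nor after. For F11r in IMA10 relative to the Sertoli markers (0.00) they were -0.063 with median-of-ratios, -0.11 with quantile, -0.19 with a pseudocount of 0.1 and -0.048 with the median of the markers, and leaving out libraries gave -0.078 to 0.094. For IMA10 minus Sa, median-of-ratios gave 0.075 for Cldn11, 0.14 for Jam2 and 0.019 for Jam3, and quantile gave 0.0067 for Ocln. Leaving out libraries gave -0.65 to 0.66 for Cldn11, -0.59 to 0.49 for Ocln, -0.84 to 0.43 for F11r, -0.51 to 0.70 for Jam2, -0.57 to 0.39 for Jam3, -0.49 to 0.013 for Tjp1, -0.87 to 0.32 for Gja1, -0.11 to 0.40 for Cdh2. For IMA10 minus IMC the ranges were -1.01 to 0.30 for Cldn11, -0.82 to 0.25 for Ocln, -1.18 to 0.088 for F11r, -0.94 to 0.28 for Jam2, -0.85 to 0.11 for Jam3, -0.88 to 0.32 for Gja1, -0.38 to 0.13 for Cdh2. For IMC minus Sa, quantile gave -0.027 for Gja1, and leaving out libraries gave -0.037 to 0.10 for Tjp1, -0.12 to 0.078 for Gja1. Unknown depth limits statements on Ocln and Jam2, whose Con levels were the lowest.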
